A study of Arabidopsis thaliana with 56 samples.

Results

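The 10 Arabidopsis thaliana genes of WRKY groups IIa and IIb described here were taken by their gene identifiers from the 33016 genes counted in each library. They are the 3 group IIa genes WRKY18 (AT4G31800, chr4:15382777-15385100), WRKY40 (AT1G80840, chr1:30383561-30385499) and WRKY60 (AT2G25000, chr2:10629662-10631413), and 7 group IIb genes, WRKY6 (AT1G62300, chr1:23016569-23019494), WRKY31 (AT4G22070, chr4:11691172-11694590), WRKY42 (AT4G04450, chr4:2218042-2221260), WRKY47 (AT4G01720, chr4:744804-748554), WRKY72 (AT5G15130, chr5:4904290-4907094), WRKY61 (AT1G18860, chr1:6508797-6511397) and WRKY9 (AT1G68150, chr1:25543949-25545791). All are protein-coding genes, with coordinates on the TAIR10.1 assembly. The choice was by family and not by measured values, though earlier results of these data were known. WRKY36, another group IIb gene, was not among them. The TARGET assay, in which a single TF is sent into the nucleus of isolated root cells, was used to ask which genes respond to each of 13 TFs. RNA was sequenced in 56 libraries, 9 with the empty vector (EV) and 47 with a TF, in 3 batches.

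All libraries, EV included, came from Col-0 root protoplasts (root cells stripped of their walls) of 10-day-old seedlings that received 35 µM cycloheximide, which blocks translation, and 10 µM dexamethasone, which releases the TF into the nucleus. Cells that took up the vector were sorted by fluorescence before polyA RNA was extracted. Every batch had EV libraries. The TFs were ABF1, FBH3, HSFA6A and ZAT6 in batch 1, DIV2, GBF2, HSFA6A, MYB3, MYBR1 and WRKY33 in batch 2, and ABF3, DREB2A, FBH3, GBF2, GBF3 and HB7 in batch 3. Each group had 3 libraries, except ABF3 with 2. The replicates of a group were wells filled from a single transfection, so p-values measure the spread between wells. The study used vectors with RFP or GFP, the labels do not give the marker of each library, and an effect of the marker cannot be told apart from that of the TF. Each TF in a batch made 1 contrast with EV of that batch, 16 contrasts in all. The contrasts of a batch share their EV libraries and every fit used the 9 EV libraries, so the contrasts are not independent of each other.

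WRKY proteins are plant TFs with a DNA-binding domain built around a zinc finger, and they bind the W-box, a short word with the core TTGAC that is found upstream of many defense genes and of many WRKY genes themselves. Those of groups IIa and IIb also carry a leucine zipper region in front of that domain. WRKY18, WRKY40 and WRKY60 bind each other and themselves, are induced within minutes to hours by wounding and microbial elicitors, and act mostly as negative regulators of basal defense and as regulators of abscisic acid responses. The group IIb genes are known from phosphate supply, senescence, cell wall and barrier formation and defense.

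Upstream sequences are shown first for the genes whose levels moved with WRKY33, the only WRKY protein among the 13 TFs, and for WRKY18, which did not pass the test there but did in more contrasts than any other member. They are the 300 bases before the annotated gene start, read in the direction of the gene from the TAIR10.1 assembly with RefSeq gene models. Capitals mark each TTGAC, or GTCAA where the word lies on the opposite strand.
WRKY40, group IIa, chr1:30383261-30383560, plus strand: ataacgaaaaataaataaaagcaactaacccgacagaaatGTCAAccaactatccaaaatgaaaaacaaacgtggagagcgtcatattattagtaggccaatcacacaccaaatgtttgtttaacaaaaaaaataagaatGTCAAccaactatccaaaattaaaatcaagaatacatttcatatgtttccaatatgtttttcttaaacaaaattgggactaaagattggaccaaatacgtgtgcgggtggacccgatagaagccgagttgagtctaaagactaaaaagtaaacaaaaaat
WRKY6, group IIb, chr1:23019495-23019794, minus strand: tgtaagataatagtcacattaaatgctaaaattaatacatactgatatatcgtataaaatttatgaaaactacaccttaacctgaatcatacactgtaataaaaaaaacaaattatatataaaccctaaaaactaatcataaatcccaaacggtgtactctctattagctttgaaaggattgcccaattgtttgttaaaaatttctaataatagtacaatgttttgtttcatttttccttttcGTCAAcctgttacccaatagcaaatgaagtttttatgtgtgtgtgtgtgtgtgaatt
WRKY47, group IIb, chr4:744504-744803, plus strand: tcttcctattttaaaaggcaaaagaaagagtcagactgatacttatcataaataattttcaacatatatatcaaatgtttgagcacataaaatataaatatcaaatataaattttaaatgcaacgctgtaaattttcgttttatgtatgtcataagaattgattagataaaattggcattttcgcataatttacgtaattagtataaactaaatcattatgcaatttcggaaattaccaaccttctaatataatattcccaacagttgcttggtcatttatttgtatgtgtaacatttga
WRKY72, group IIb, chr5:4903990-4904289, plus strand: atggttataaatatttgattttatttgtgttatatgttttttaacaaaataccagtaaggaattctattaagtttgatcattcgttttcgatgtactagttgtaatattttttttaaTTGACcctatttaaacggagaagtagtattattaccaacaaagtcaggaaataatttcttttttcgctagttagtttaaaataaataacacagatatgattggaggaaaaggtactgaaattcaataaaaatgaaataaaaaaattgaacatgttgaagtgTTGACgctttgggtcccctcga
WRKY18, group IIa, chr4:15382477-15382776, plus strand: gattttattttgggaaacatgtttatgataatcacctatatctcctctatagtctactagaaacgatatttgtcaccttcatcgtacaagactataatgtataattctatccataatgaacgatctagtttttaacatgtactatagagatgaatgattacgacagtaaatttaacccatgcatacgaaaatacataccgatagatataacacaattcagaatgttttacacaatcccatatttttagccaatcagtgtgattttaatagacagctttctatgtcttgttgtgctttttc

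The core TTGAC, searched on both strands, occurred in these 300 bases 2 times in WRKY40, 2 times in WRKY72 and 1 time in WRKY6, and it did not occur in WRKY47 or WRKY18. Of the 10 members 5 held it, against 50.4% of the 27443 genes with an upstream sequence. The full W-box, TTGACC or TTGACT, contains the core, and within 500 bases it was found in 4 of the 10 (WRKY31, WRKY72, WRKY61 and WRKY9), against 45.2% of all genes. In WRKY72 it began at base -183. Within 1000 bases 9 of the 10 held a full W-box, against 67.3% of all genes, the exception being WRKY42. In the group IIa genes these were clustered, starting at bases -736, -729 and -720 in WRKY18, at -813 and -807 in WRKY40 and at -637, -629 and -624 in WRKY60. A G-box (CACGTG), the word bound by bZIP factors such as GBF2, GBF3 and the ABFs, was in the 500 bases of 1 member, WRKY47, against 9.35% of all genes. In 1000 bases 3 of the 10 held a G-box, WRKY6 at base -975, WRKY31 at -735 and WRKY47 at -488, against 14.8% of all genes. The dehydration-responsive element bound by DREB2A (ACCGAC or GCCGAC) was in the 500 bases of none, against 12.6% of all genes. Within 1000 bases 2 of the 10 held it, WRKY18 at base -753 and WRKY31 at -947, against 22.3% of all genes. A match of letters is no binding site, and a missing match holds for these windows only.

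The libraries held 8619133 to 29763752 counts (median 17460033), and 4 loci beside the ribosomal RNA units took 1.0% to 78.1% of them, which left 5603969 to 23463910 counts for other genes. The gene of the transfected TF was above every EV library of its batch in 16 of 16 groups, with the lowest ratio of means, 2.07, for WRKY33, whose EV level was already high. Endodermis and phloem markers were present in EV (SCR at a median of 16.9 CPM, where CPM are TMM-scaled counts relative to library size, MYB36 at 14.3, APL at 16.3 and SUC2 at 10.6). The root hair markers COBL9 and EXPA7 had a median of 0, and GL2, WER and WOX5 (epidermis and quiescent centre) had medians under 1 CPM. The shoot markers RBCS1A, LHCB1.1, LHCB1.3 and FAMA had a median of 0 in EV. In batch 2 the summed level of the root markers was 100 to 110 CPM in EV and lower in every TF group of the batch, from 45.7 to 62.9 CPM with GBF2 to 80.8 to 97.7 CPM with WRKY33, while the shoot markers summed to under 1 CPM. The part of this difference in the batch 2 results was not tested. RNA was measured in bulk, so fewer cells of a type and less RNA per cell cannot be told apart.

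The members spanned more than 3 orders of magnitude in EV cells. Since longer genes collect more reads, their levels were compared as CPM per kb of exons. WRKY40 was highest, at 1055 ± 177 (SD, n = 9 EV libraries), followed by WRKY6 at 515, WRKY72 at 223, WRKY18 at 216, WRKY47 at 46.1, WRKY61 at 13.4, WRKY31 at 13.2, WRKY60 at 3.32, WRKY9 at 2.19 and WRKY42 at 0.194. Among the 25032 genes with counts in EV, WRKY40 stood at the 99.8th percentile and WRKY18 at the 98.5th. The ranges over the 9 libraries did not overlap between WRKY40 and WRKY6, WRKY6 and WRKY72, WRKY18 and WRKY47, or WRKY47 and WRKY61. They overlapped for every other pair of neighbours, so the order within those pairs was not resolved. Among the last 5 genes the range of WRKY61 lay above those of WRKY60, WRKY9 and WRKY42, and the ranges of WRKY31 and WRKY60 lay above that of WRKY42. The group IIa genes were therefore spread widely, with WRKY40 at the top, WRKY18 at 216 and WRKY60 at 3.32, above only WRKY9 and WRKY42 by its mean.

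**Figure D1:**
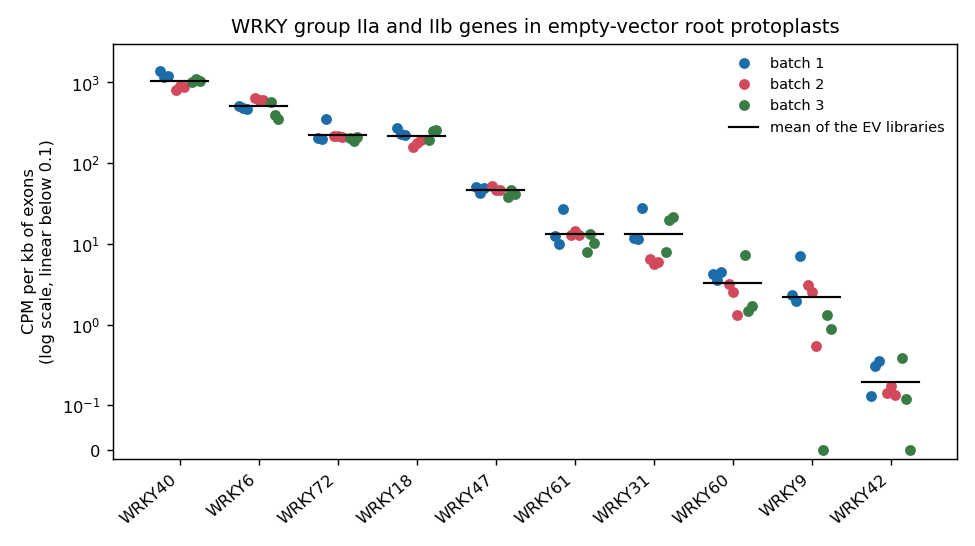
Level of each of the 10 genes in the 9 EV libraries, in CPM per kb of exons on a log scale that is linear below 0.1, with points coloured by batch and a line at the mean. WRKY40, at a mean of 1055, stands above the range of WRKY6, and WRKY9 and WRKY42 reach 0 in a library of batch 3.

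EV levels also differed between batches for 2 members, WRKY40 and WRKY31, in edgeR's quasi-likelihood F test with Benjamini-Hochberg adjustment over all genes, where 11.7% of 18732 genes passed. WRKY40 measured 1830, 1530 and 1587 CPM in batch 1, 1083, 1202 and 1157 CPM in batch 2, and 1336, 1450 and 1400 CPM in batch 3. The batches did not overlap, and the F test over the 3 batches gave an adjusted p of 0.0144. Batch 2 was 0.51 ± 0.10 (SE) lower than batch 1 on the log2 scale, a pair that was not tested alone. WRKY31 measured 25.6, 25.4 and 60.2 CPM in batch 1, 14.2, 12.4 and 13.1 CPM in batch 2, and 17.5, 43.0 and 47.3 CPM in batch 3 (adjusted p = 0.0475), so its EV libraries of batch 2 were the lowest. Both calls rested on few libraries. The count was 0 without replicate 1 of batch 1 or without any EV replicate of batch 2, and 5 without replicate 1 of batch 3. That library, EV replicate 1 of batch 3, lay farthest from the other libraries of its own group, with a median absolute log2 difference of 0.368 over genes. For the members it was high for WRKY6 (1338 CPM, against 929 and 826) and WRKY60 (11.6 CPM, against 2.32 and 2.72) and low for WRKY31. In EV replicate 3 of batch 1, WRKY72 was at 719 CPM (against 415 and 400), WRKY61 at 50.9 CPM (against 23.3 and 18.7) and WRKY31 at 60.2 CPM.

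In the 16 contrasts, 156 of the 160 pairs of a member and a TF could be tested, and of these 17 rose, 8 fell and 131 did not pass an FDR of 0.05 in edgeR's quasi-likelihood test. Over all genes, 3.45% of 306608 pairs rose and 2.48% fell. Several members are more abundant than most genes, and in each contrast the more abundant genes were called more often than genes at large, so these shares are no measure of anything particular to the family. In all 25 called pairs the TF libraries lay outside the range of EV of their batch. The pairs were picked by a test of these same libraries, so this adds no support to the calls. Some pairs that did not pass also lay outside, among them WRKY47 with ABF1 (61.4 to 69.7 CPM, against 83.5 to 100 CPM in EV). With ABF1, ABF3, GBF3, HB7 and HSFA6A in batch 1 no member passed, where 0.495%, 1.81%, 0.0157%, 5.52% and 0.0106% of all genes did.

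**Figure D2:**
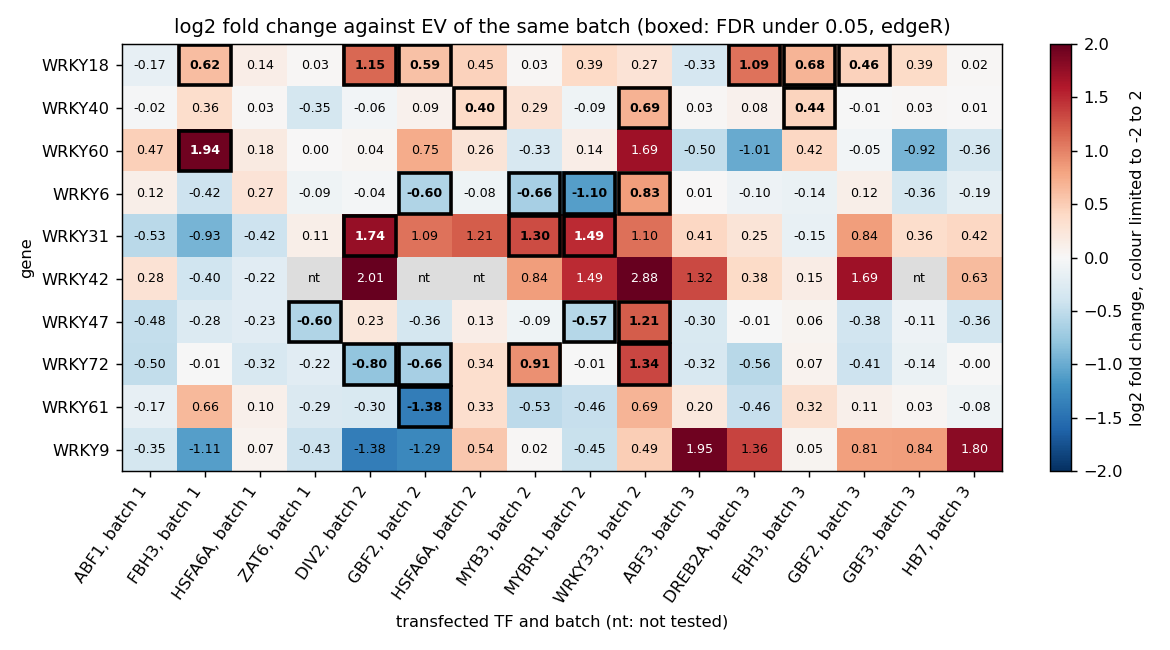
Log2 fold change of each gene (rows) with each TF against EV of its batch (columns), with the value in each cell, colour limited to -2 to 2 and pairs with an FDR under 0.05 boxed. WRKY18 has boxes in 6 columns, from 0.46 to 1.15, and WRKY33 is the column with 4 boxes, from 0.69 to 1.34, while the large values of WRKY42 and WRKY9 rest on few counts.

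WRKY33, a group I WRKY protein required for camalexin synthesis and for resistance to necrotrophic fungi, was the TF with which most members rose. Of the 10 tested, 4 rose and 0 fell, where 5.02% of 18870 genes rose and 1.2% fell, and the median log2 fold change of the members was 0.96 against -0.04 for all genes. The TF's own gene was at 7326, 7572 and 8589 CPM with the WRKY33 vector and at 3654, 3861 and 3811 CPM in its controls, so that it differed by 1.03 ± 0.12 on the log2 scale from an EV level that was already above that of any member.

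WRKY72, which contributes to basal defense in tomato and Arabidopsis, had the largest called fold change of the 4. It measured 999, 1142 and 1254 CPM with WRKY33 and 440, 445 and 432 CPM in EV. The groups were well apart, with a log2 fold change of 1.34 ± 0.18 (SE, FDR = 0.000134, n = 3 per group). WRKY47, reported as a regulator of cell wall genes in roots, measured 217, 201 and 248 CPM with WRKY33 and 100, 91.4 and 90.5 CPM in EV, also without overlap (log2 fold change 1.21 ± 0.12, FDR = 7.1e-06). The nearest full W-box upstream of WRKY47 began at base -670.

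WRKY6, a regulator of senescence and of the phosphate exporter gene PHO1, measured 2490, 2455 and 2817 CPM with WRKY33 and 1487, 1402 and 1396 CPM in EV (log2 fold change 0.83 ± 0.14, FDR = 0.00122). WRKY40, the most abundant member, measured 1792, 1875 and 1992 CPM against 1083, 1202 and 1157 CPM (log2 fold change 0.69 ± 0.09, FDR = 0.000152). In both genes every WRKY33 library exceeded every EV library. These 4 calls kept their direction and passed in each alternative tried.

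The other members did not pass with WRKY33, although none had a negative estimate. WRKY60 measured 10.4, 14.96 and 11.5 CPM against 5.03, 4.06 and 2.09 CPM, without overlap, but with a wide error (log2 fold change 1.69 ± 0.51, FDR = 0.0659). WRKY31 was estimated at 1.096 ± 0.36 (FDR = 0.0972), WRKY61 at 0.69 ± 0.29 (FDR = 0.243) and WRKY9 at 0.49 ± 0.91 (FDR = 0.90) on the log2 scale. WRKY42, which acts on phosphate uptake, was at 2.33, 2.51 and 3.46 CPM against 0.340, 0.420 and 0.327 CPM in EV (FDR = 0.202). WRKY18 measured 432, 446 and 436 CPM against 326, 360 and 387 CPM, above EV but by an estimate of 0.27 ± 0.12 (FDR = 0.268). Some of these misses depended on the setting. WRKY60 passed with DESeq2, without the low-count filter, against EV from batch 2 alone, in 1 model fitted to the whole series, and when the remaining TF libraries replaced EV. WRKY31 passed in these except the last. WRKY61 passed against EV from batch 2 alone and against the remaining TF libraries, and WRKY42 with DESeq2 and against EV from batch 2 alone. With a term for the replicate number (the replicate block) WRKY18, WRKY60, WRKY31 and WRKY61 passed against EV. With that block in the model of the whole series WRKY60, WRKY31 and WRKY61 passed. Against the remaining TF libraries WRKY18 was lower, at -0.24 ± 0.08 (FDR = 0.0407).

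Of the other WRKY genes, leaving out WRKY33 itself, 47 of 56 were tested in this contrast, and 11 rose and 2 fell, against 5.02% and 1.2% of all genes, with a median log2 fold change of 0.25. WRKY55 rose by 1.75 ± 0.17 (FDR = 6.16e-06), WRKY71 by 0.97 ± 0.15 (FDR = 0.000681) and WRKY38, a gene linked to salicylic acid signaling, by 1.29 ± 0.21 (FDR = 0.001) on the log2 scale. WRKY4 and WRKY2 fell.

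**Figure D3:**
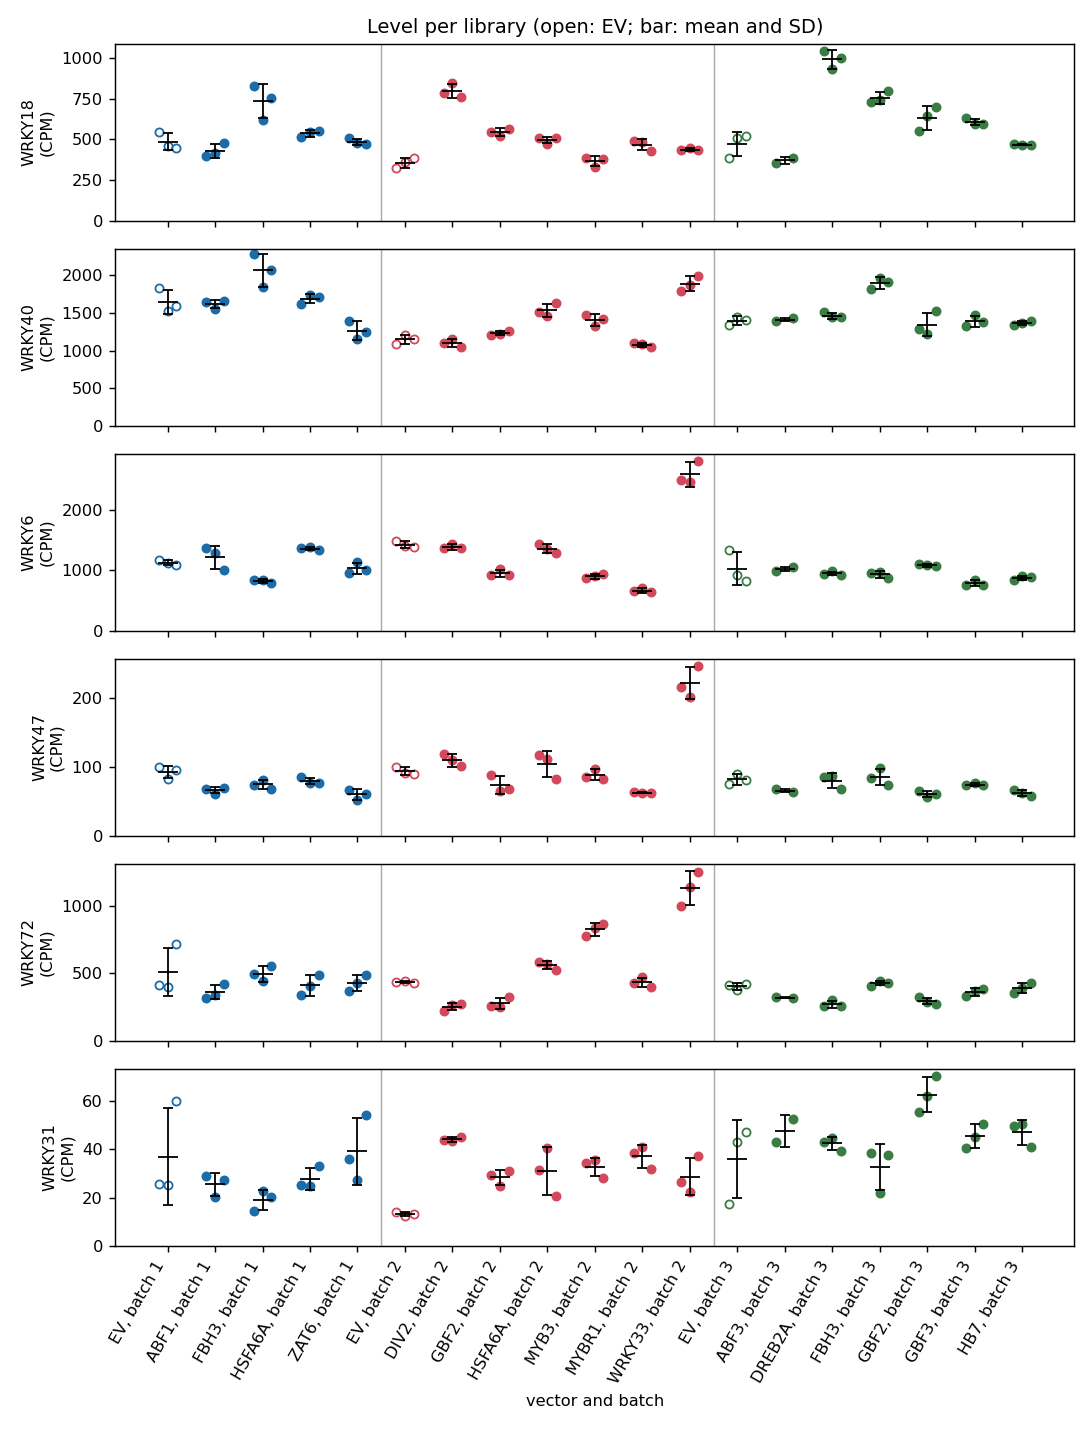
Level in CPM of 6 members in each library, by vector and batch, with open circles for EV, filled circles for a TF and black bars for the mean and SD; each panel starts at 0. WRKY6, WRKY47 and WRKY72 are at their highest with WRKY33 (means of 2587, 222 and 1132 CPM), WRKY18 with DREB2A (mean of 991 CPM), and the EV libraries of WRKY31 in batch 2 are below every TF library of that batch.

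WRKY18, the group IIa gene that heads the list by number of calls, rose in 6 of its 16 contrasts and fell in 0. The increases came with DIV2, DREB2A, FBH3 in 2 batches and GBF2 in 2 batches, TFs of the MYB-related, AP2/ERF, bHLH and bZIP families. With DIV2 it measured 786, 844 and 759 CPM against 326, 360 and 387 CPM in EV, a separation without overlap (log2 fold change 1.15 ± 0.13, FDR = 9.96e-06, in a contrast where 8.71% of genes rose). With DREB2A, an activator of drought and heat responsive genes, it measured 1043, 930 and 1002 CPM against 388, 509 and 519 CPM (log2 fold change 1.09 ± 0.12, FDR = 0.00013, where 1.97% of genes rose). WRKY18 was the only member called with DREB2A, and both increases were called in each alternative.

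FBH3, a bHLH protein first described as an activator of the flowering gene CONSTANS, gave similar WRKY18 levels in both batches. In batch 1 WRKY18 measured 827, 621 and 752 CPM against 548, 462 and 449 CPM (log2 fold change 0.62 ± 0.15, FDR = 0.0219, where 4.58% of genes rose). In batch 3 it measured 729, 739 and 798 CPM against 388, 509 and 519 CPM (log2 fold change 0.68 ± 0.12, FDR = 0.00339, where 3.52% rose). The FBH3 libraries were above EV in each batch. The batch 1 call was lost in 4 of the 6 fits that left out a library, with the highest FDR at 0.119 without FBH3 replicate 1. With both batches in a TF+Batch model, WRKY18 rose by 0.62 ± 0.10 (FDR = 0.00019) on the log2 scale, where 9.7% of 19697 genes were called, and the difference between batches was 0.10 ± 0.21 (FDR = 0.99).

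GBF2, a bZIP protein that binds the G-box, had WRKY18 at 548, 519 and 565 CPM against 326, 360 and 387 CPM in batch 2 (log2 fold change 0.59 ± 0.13, FDR = 0.00507, where 5.56% of genes rose). In batch 3 it was at 551, 646 and 696 CPM against 388, 509 and 519 CPM (log2 fold change 0.46 ± 0.13, FDR = 0.0365, where 4.42% rose). GBF2 libraries were above EV in each batch, and over both batches WRKY18 rose by 0.53 ± 0.10 (FDR = 0.00114, where 10.2% of 19771 genes were called). With the remaining TF libraries of a batch as control instead of EV, the estimates were 0.14 (FDR = 0.288) in batch 2 and 0.07 (FDR = 0.742) in batch 3, so neither call held. In batch 2 the TF libraries were above EV in WRKY18 in 5 of the 6 TF groups. The batch 3 call was also lost without EV replicate 1, where the estimate was 0.28 (FDR = 0.128), and without GBF2 replicate 2 (FDR = 0.124) or replicate 3 (FDR = 0.148). It was lost as well with EV of the same batch alone (0.45, FDR = 0.134) and without the low-count filter (0.40, FDR = 0.0528). Without the same EV library, WRKY18 was lower with ABF3 by an estimate of -0.46 ± 0.12 (FDR = 0.0317), against -0.33 ± 0.15 (FDR = 0.367) with it.

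WRKY40 rose in 3 contrasts. Besides the increase with WRKY33, it measured 1816, 1967 and 1910 CPM with FBH3 in batch 3 against 1336, 1450 and 1400 CPM in EV (log2 fold change 0.44 ± 0.09, FDR = 0.00863). In batch 1 it measured 2280, 1842 and 2073 CPM with FBH3 against 1830, 1530 and 1587 CPM, above EV without passing (log2 fold change 0.36 ± 0.12, FDR = 0.102). Over both batches it rose by 0.37 ± 0.08 (FDR = 0.00428). The batch 3 call was lost without FBH3 replicate 2 (FDR = 0.0545) or replicate 3 (FDR = 0.0505). With HSFA6A, a heat shock factor, WRKY40 measured 1511, 1465 and 1624 CPM in batch 2 against 1083, 1202 and 1157 CPM, an increase of 0.40 ± 0.09 (FDR = 0.0262, where 2.27% of genes rose) that was lost when any of the 6 libraries of that batch was left out, with an FDR of up to 0.150, and without the low-count filter (FDR = 0.0544). WRKY40 overlaps an antisense gene (AT1G80850) by 51 bases of exon, and whether counting used strand is not stated.

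WRKY60, whose promoter is a known target of WRKY18 and WRKY40, was called in 1 contrast. With FBH3 in batch 1 it measured 31.1, 14.6 and 27.8 CPM against 6.67, 5.69 and 7.06 CPM, well above EV (log2 fold change 1.94 ± 0.51, FDR = 0.0343). The call was lost in 5 of the 6 fits without a library, with an FDR of up to 0.146 and estimates of 1.70 to 2.20. In batch 3 it measured 6.56, 8.07 and 6.99 CPM with FBH3 against 11.6, 2.32 and 2.72 CPM, and EV replicate 1 decided the result: the estimate was 0.42 ± 0.49 (FDR = 0.764) with that library and 1.503 ± 0.33 (FDR = 0.00667) without it.

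WRKY6 was the member with the most decreases, 3, in batch 2 with MYBR1, MYB3 and GBF2, against EV at 1487, 1402 and 1396 CPM. With MYBR1, a MYB protein of stress and abscisic acid responses, it measured 654, 709 and 638 CPM (log2 fold change -1.095 ± 0.14, FDR = 6.51e-05, where 5.87% of genes fell). With MYB3, a repressor of phenylpropanoid genes, it measured 868, 901 and 946 CPM (log2 fold change -0.66 ± 0.13, FDR = 0.00356, where 4.32% fell). With GBF2 it measured 918, 1022 and 922 CPM (log2 fold change -0.60 ± 0.14, FDR = 0.00773, where 7.2% fell). In each of the 3 groups the TF libraries were below every EV library, and each call held in every alternative. With DIV2 in the same batch WRKY6 was at 1364, 1441 and 1366 CPM, overlapping EV.

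WRKY47 fell with MYBR1 as well, from 100, 91.4 and 90.5 CPM in EV to 63.6, 63.0 and 62.5 CPM (log2 fold change -0.57 ± 0.12, FDR = 0.00355), a call that held in every alternative. With ZAT6, a zinc finger protein of abiotic stress and phosphate responses, it measured 67.5, 52.1 and 61.6 CPM in batch 1 against 100, 83.5 and 95.8 CPM (log2 fold change -0.60 ± 0.14, FDR = 0.0272, where 1.72% of genes fell). The ZAT6 libraries were below EV, and the call was lost in 5 of the 6 fits without a library (FDR up to 0.138), with EV of the same batch alone (FDR = 0.0799) and against the other TF libraries (-0.28, FDR = 0.0661). Without EV replicate 1 of batch 3, WRKY47 was also lower with GBF2 (-0.50 ± 0.12, FDR = 0.010) and HB7 (-0.47 ± 0.12, FDR = 0.0143) in that batch, where neither passed with it (FDR = 0.0548 and 0.0845).

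WRKY72 moved in both directions. It rose with MYB3, to 777, 833 and 867 CPM from 440, 445 and 432 CPM in EV (log2 fold change 0.91 ± 0.17, FDR = 0.00202, where 6.32% of genes rose). It fell with DIV2, to 222, 266 and 271 CPM (log2 fold change -0.80 ± 0.18, FDR = 0.00475, where 9.37% fell), and with GBF2, to 258, 255 and 328 CPM (log2 fold change -0.66 ± 0.18, FDR = 0.0246). None of these groups overlapped EV, and the MYB3 and DIV2 calls held in every alternative. The GBF2 call was lost in 5 of the 6 fits without a library (FDR up to 0.0919), while over both batches of GBF2 the gene fell by 0.53 ± 0.13 (FDR = 0.0103) on the log2 scale. With MYB3, then, WRKY72 was higher and WRKY6 lower in the same 3 libraries. With GBF2 in batch 2, WRKY18 was higher and WRKY6, WRKY72 and WRKY61 were lower.

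WRKY31, which falls in a clade with WRKY6 and WRKY42, was called with DIV2, MYB3 and MYBR1, all in batch 2, where its EV libraries were at 14.2, 12.4 and 13.1 CPM. It measured 43.8, 43.6 and 45.4 CPM with DIV2 (log2 fold change 1.74 ± 0.35, FDR = 0.00198), 38.7, 41.1 and 31.7 CPM with MYBR1 (1.49 ± 0.35, FDR = 0.00996, where 6.04% of genes rose) and 34.4, 35.5 and 28.3 CPM with MYB3 (1.301 ± 0.35, FDR = 0.0239). However, it was above EV in each of the 6 TF groups of that batch, with 24.8 to 31.0 CPM for GBF2, 20.8 to 40.6 CPM for HSFA6A and 22.6 to 37.4 CPM for WRKY33. With the remaining TF libraries of batch 2 as control, the estimates were 0.49 (FDR = 0.0575) for DIV2, 0.19 (FDR = 0.692) for MYBR1 and -0.03 (FDR = 1) for MYB3, so none of the 3 calls held and the last turned its sign. The MYB3 call was also lost in 5 of the 6 fits without a library (FDR up to 0.0889), and the MYBR1 call without EV replicate 2 (FDR = 0.051). In batches 1 and 3 the EV libraries of WRKY31 reached 60.2 and 47.3 CPM, and no contrast there passed.

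WRKY61, a close relative of WRKY72, was called in 1 contrast. With GBF2 in batch 2 it measured 8.23, 12.6 and 8.60 CPM against 24.4, 27.1 and 24.5 CPM in EV, well below (log2 fold change -1.38 ± 0.32, FDR = 0.00845), and the call held in every alternative. With FBH3 in batch 1 WRKY61 did not pass (0.66 ± 0.29, FDR = 0.247), but it did without EV replicate 3 of that batch (1.22 ± 0.22, FDR = 0.00468). The gene shares 216 exon bases with an antisense non-coding gene (AT1G05447). WRKY9, a regulator of suberin genes, was between 0 and 9.42 CPM in EV and passed in 0 of 16 contrasts, with estimates of -1.38 to 1.95 on the log2 scale. It overlaps an antisense gene (AT1G68160, median count 182.5) by 34 bases of exon, so reads of that gene may add to its low counts if strand was not used. WRKY42 passed in 0 of the 12 contrasts in which it had enough counts to be tested. WRKY42 with WRKY33 passed with DESeq2 and with EV of the same batch alone, and WRKY9 with GBF2 in batch 2 passed without GBF2 replicate 2.

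The 3 TFs with libraries in more than 1 batch, FBH3, GBF2 and HSFA6A, allowed the responses of the batches to be compared by the interaction term. With FBH3 no member differed, and 0 of 19338 genes did. With GBF2 4.88% of 19450 genes differed, among them 2 members. WRKY6 fell with GBF2 in batch 2 and measured 1111, 1083 and 1067 CPM in batch 3 against 1338, 929 and 826 CPM in EV, a range that contains it, and the responses differed by 0.69 ± 0.19 (FDR = 0.0446) on the log2 scale. That range rested on EV replicate 1 of batch 3, at 1338 CPM. Without this library WRKY6 rose with GBF2 in batch 3 by 0.29 ± 0.08 (FDR = 0.0283), against 0.12 ± 0.13 (FDR = 0.655) with it. WRKY61 fell in batch 2 and measured 23.3, 21.4 and 17.3 CPM in batch 3 against 14.9, 24.7 and 19.4 CPM, a difference of 1.46 ± 0.33 (FDR = 0.014). Without EV replicate 2 of batch 2 the count was 0, and it was 1 in 9 of the other 11 fits that left out a library.

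With HSFA6A 5.76% of 18592 genes differed between batches, again including 2 members. WRKY40 rose in batch 2 and measured 1621, 1734 and 1708 CPM in batch 1 against 1830, 1530 and 1587 CPM in EV, a difference of 0.39 ± 0.11 (FDR = 0.0448). WRKY31 measured 31.4, 40.6 and 20.8 CPM in batch 2 and 25.4, 24.9 and 33.2 CPM in batch 1, so the HSFA6A libraries of the batches overlapped while EV did not, and the responses differed by 1.64 ± 0.38 (FDR = 0.0109). The count was 1 without any of the EV libraries of batch 2, without HSFA6A replicate 1 or 2 of batch 1 and without HSFA6A replicate 1 or 2 of batch 2. Over both batches of HSFA6A no member was called, as 0.0105% of 19038 genes were. Over both batches of GBF2, WRKY31 rose by 0.97 ± 0.22 (FDR = 0.00772) and WRKY47 fell by 0.36 ± 0.10 (FDR = 0.0273) on the log2 scale, in addition to WRKY18 and WRKY72.

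**Figure D4:**
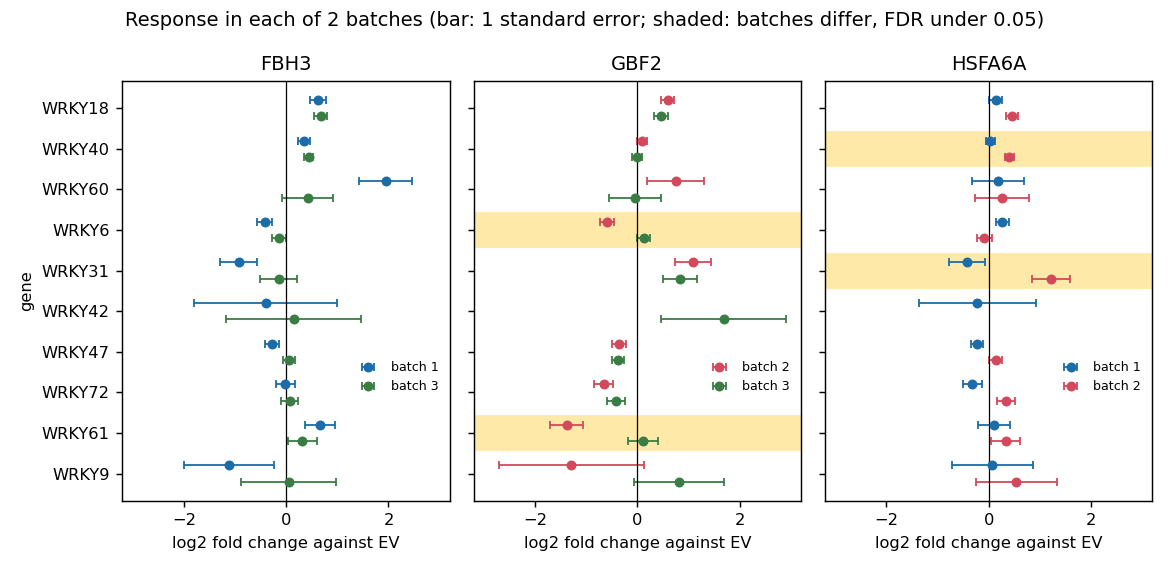
Log2 fold change against EV (x axis) of each member (y axis) in each of the 2 batches of FBH3, GBF2 and HSFA6A, with bars of 1 standard error, colours for batches and shading where the batches differed at an FDR under 0.05. WRKY18 lies to the right of 0 with FBH3 and GBF2 in each batch, and the shaded genes are WRKY6 and WRKY61 for GBF2 and WRKY40 and WRKY31 for HSFA6A.

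Levels of the members were also set against each other over the 56 libraries after each batch's mean was subtracted, which is a description since the libraries share batches and controls. Pearson's r of log2(CPM + 1) was 0.73 for WRKY6 and WRKY47, 0.64 for WRKY40 and WRKY47, 0.60 for WRKY40 and WRKY72 and 0.59 for WRKY72 and WRKY61. WRKY18 and WRKY40, of the same group, had an r of 0.17, and WRKY18 and WRKY72 one of -0.39. For WRKY6 and WRKY47 Spearman's rho was lower, at 0.42. Among 9627 genes with a mean of at least 8 CPM, those most like WRKY40 were NPY3 (r = 0.89), CRK28, a receptor-like kinase (r = 0.88), and ACS7, an enzyme of ethylene synthesis (r = 0.86). Those most like WRKY18 were IGMT1, a methyltransferase of indole glucosinolates (r = 0.77), PYL5, an abscisic acid receptor (r = 0.74), and AT3G19540 (r = 0.72). Those most like WRKY6 were AT2G42980 (r = 0.83), the receptor kinase gene RK2 (r = 0.82) and ATBFRUCT1, a cell wall invertase (r = 0.81). Ranked by Spearman's rho, the 3 leading genes were different ones for each member.

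The rest of the WRKY family had most of its calls in the contrasts with many calls over all genes. Of the 57 other WRKY genes, 10 rose and 18 fell among 48 tested with DIV2, where 8.71% of all genes rose and 9.37% fell. With MYBR1 5 rose and 15 fell among 48, against 6.04% and 5.87% of all genes. With MYB3 5 rose and 11 fell among 48, against 6.32% and 4.32%. With GBF2 in batch 2 4 rose and 16 fell among 47, against 5.56% and 7.2%, and the median log2 fold change was -0.35 against -0.04 for all genes. WRKY55 fell in 9 contrasts and rose in 1, with WRKY33. WRKY71 fell in 6 and likewise rose with WRKY33. WRKY7 fell in 6 and rose in 2, both with FBH3. WRKY38 rose in 5 and fell in 2.

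Of 11 genes reported elsewhere as targets of these WRKY proteins, 10 were tested. With WRKY33 3 rose and 0 fell, where 5.02% of all genes rose and 1.2% fell, and the median log2 fold change was 0.42 against -0.04 for all genes. HSFA6A in batch 2 had the same counts, where 2.27% of all genes rose. With MYB3 3 rose and 1 fell, against 6.32% and 4.32% of all genes. With MYBR1 4 rose and 3 fell, against 6.04% and 5.87%. GBF2 in batch 2 also had 4 that rose and 3 that fell, against 5.56% and 7.2%. FBH3 in batch 1 had 2 that rose and 4 that fell, where 4.58% of all genes rose. With DESeq2's size factors in edgeR, 1.71% of all genes fell in that contrast. FRK1, a receptor kinase gene used as a marker of early defense, rose with WRKY33 by 1.44 ± 0.16 (FDR = 2.44e-05) and fell in 6 other contrasts, among them MYB3 (-1.73 ± 0.16, FDR = 3.19e-06) and DIV2 (-1.63 ± 0.18, FDR = 1.18e-05). EDS1, a core regulator of immunity, fell in 7 contrasts and rose in 0, most with DIV2 (-1.46 ± 0.15, FDR = 3.51e-06). CYP94B3, which turns over active jasmonate, rose in 6 contrasts and fell with FBH3 in batch 1 (-1.21 ± 0.27, FDR = 0.0118). JAZ8, a jasmonate repressor, rose in 6 and fell in 0. CYP94B3 and JAZ8 both rose with DIV2, GBF2, HSFA6A, MYB3 and MYBR1 in batch 2. CYP94B3 also rose with WRKY33 (0.61 ± 0.17, FDR = 0.0413), so its 6 increases were all in batch 2, whose contrasts share their EV libraries. What part these EV libraries had was not tested.

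Of 22 genes of the early wound and elicitor response, to which WRKY18 and WRKY40 belong by their known behavior, 4 rose and 0 fell with WRKY33 (median log2 fold change 0.11), where 5.02% of all genes rose and 1.2% fell. With FBH3 5 rose in batch 1 and 6 in batch 3, against 4.58% and 3.52% of all genes, and 0 fell in either. The most increases came with MYB3, where 7 rose and 4 fell, against 6.32% and 4.32% of all genes. GBF2 in batch 2 had 6 that rose and 3 that fell, against 5.56% and 7.2%. With DREB2A 2 rose and 0 fell, where 1.97% of all genes rose. With DIV2 4 rose and 7 fell, against 8.71% and 9.37% of all genes, and with MYBR1 also 4 rose and 7 fell, against 6.04% and 5.87%. MKK9, a MAP kinase kinase, rose in 9 contrasts, ERF104, an ethylene response factor, in 8 and TCH4, a cell wall enzyme gene induced by touch, in 8, and none of the 3 fell. ERF5 rose in 3 and fell in 3. These 4 were named for having the most calls of the list, and over all genes 3.45% of pairs rose and 2.48% fell. Of the genes next by number of calls, PUB23 and PUB22 fell in 5 and rose in 0, and BAP1 rose in 5 and fell in 0.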

How the data were processed

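The values are raw counts of reads per gene, which the authors deposited as 1 table per library after alignment to TAIR10 with HISAT2 (2.0.5 in the submitters' processing notes) and counting with the R packages GenomicFeatures and GenomicAlignments. Whether strand was used is not stated. The study's own tests ran in DESeq2 (1.22.1 in those notes), and its removal of cycloheximide-responsive genes was not used here. Here the main test was edgeR's quasi-likelihood test (version 4.0.16, R 4.3.3) with TMM scaling, edgeR's filter at a minimum count of 10, a batch term and the 9 EV libraries in each fit. P-values were adjusted by Benjamini-Hochberg over all genes tested, with an FDR threshold of 0.05, and the script was tested on simulated data. CPM used TMM scaling over the 56 libraries. Exon lengths and upstream sequences came from RefSeq's annotation of TAIR10.1, which has 32795 of the 33016 genes.

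Groups and replicate numbers came from the labels. Of 55 replicate pairs 0 were identical, and the least different pair had a chi-square of 4.11 per degree of freedom. The genes named were the 10 members in every contrast, the TFs' own genes, the 3 genes most like WRKY18, WRKY40 and WRKY6 by Pearson's r of log2(CPM + 1) after subtraction of batch means, and up to 4 genes with the most calls from each gene list. WRKY2, WRKY4, PUB22, PUB23 and BAP1 were named after their values were seen. The members and lists were chosen with earlier results of these data known. Alternatives were DESeq2 (1.42.0) as the test, its size factors within edgeR, no filter, EV of 1 batch, a single model, the remaining TF libraries as control, a replicate block, each library left out, and the ribosomal loci left out.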

Additional observations from a re-analysis of the deposited data

Results flagged for a closer look

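In 3 members a single EV library stood apart from the other 8, with a gap to its nearest neighbour that took up more of the range of the 9 libraries than Dixon's 95% critical value of 0.493 allows. The gap was 0.802 of the range for WRKY72, 0.663 for WRKY61 and 0.567 for WRKY9, and in each the library was EV replicate 3 of batch 1, which was the highest. Chance flags about 1 in 20 groups. Without that library the log2 fold change of WRKY72 with ABF1 was -0.17 in place of -0.50, and neither passed the test. A call did depend on it for WRKY61 with FBH3 in batch 1. There the estimate was 1.22 ± 0.22 (FDR = 0.00468) without the library and 0.66 ± 0.29 (FDR = 0.247) with it.

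The response to a TF differed between batches, by the test of the interaction term, in 4 cases. For GBF2, batch 3 minus batch 2 was 0.688 for WRKY6 and 1.46 for WRKY61 on the log2 scale. For HSFA6A, batch 2 minus batch 1 was 0.386 for WRKY40 and 1.64 for WRKY31. WRKY40 and WRKY31 are also the members whose EV levels differed between batches, and in both the EV libraries of batch 2 were the lowest. What part EV had in these differences was not tested.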

How the results depend on the processing

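The number of pairs that rose, 17, was 27 with DESeq2, 26 with EV of the same batch only, 26 in a single model over all libraries and 29 with the replicate block in that model. It was 25 with the replicate block in the separate fits and 12 to 15 without a replicate. The number that fell, 8, was 13 with DESeq2, 14 in the single model, 19 against the other TF libraries of the batch, 19 with the replicate block in the single model, 10 with the block in the separate fits, and 6 to 9 without a replicate. All 25 called pairs remained called with DESeq2, with its size factors in edgeR, in the single model and without the ribosomal loci, and 23 remained with the replicate block, which ended WRKY40 with FBH3 (0.44, FDR = 0.131) and WRKY18 with GBF2 (0.47, FDR = 0.0754), both in batch 3. Against the other TF libraries 19 remained, and WRKY31 with MYB3 turned to -0.031. The number of members differing between batches was 1 for GBF2 with DESeq2's size factors and 0 to 2 without a replicate, 1 to 3 for HSFA6A without a replicate, and 0 for FBH3 in each alternative (DESeq2 included), where WRKY60 had an unadjusted p of 0.0417. The number differing between EV batches was 0 to 5 without a replicate. Cause was not tested for any of these. Little pairing by replicate number was seen, as only 2 of 47 same-numbered pairs had deviations correlated above 0.1, the highest at 0.11. Such values cannot exclude a weak pairing or a pairing in another order. The ribosomal loci named beforehand were not used, and the 4 loci beside those units, chosen after seeing the data, took their place. The 500-base window was also set after seeing the data, and in 250 bases 2 members held a full W-box, against 28.4% of genes. Depth limited the precision for genes at a few CPM, such as WRKY60, WRKY9 and WRKY42.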
